A study of Homo sapiens with 18 samples.

Results

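Of 11571 sites mapped for GR or RELA in A549, an established line from a human lung adenocarcinoma, 95 had a collagen chain, laminin chain or integrin gene as the nearest gene, and 42 genes were named at them. The sites were chosen by gene name alone, from every gene whose symbol begins with COL and a chain number, with LAMA, LAMB or LAMC, or with ITGA or ITGB. The rule itself uses no binding value. The pattern also took in ITGB3BP and ITGBL1, which encode an integrin-binding nuclear protein and an integrin-like secreted protein rather than subunits, so 91 sites of 40 genes belonged to matrix chains and their receptors. Binding of the glucocorticoid receptor (GR) and of RELA, a subunit of NF-κB, had been mapped by ChIP-seq after 1 h without stimulus (NS) or with IL-1β at 1 ng/ml, budesonide at 300 nM or the combination, IL-1β-plus-budesonide. Each of the 8 combinations of antibody and treatment had 2 libraries, and 2 input libraries completed the 18. IL-1β is an inflammatory cytokine that activates NF-κB, and budesonide is a glucocorticoid that activates GR. All values come from the deposited table, which holds 1 pooled value per site and comparison: a fold over NS taken as log2, a false discovery rate (FDR) for that fold, and a binding intensity on a logarithmic scale. The table covers GR with budesonide and with cotreatment, and RELA with IL-1β and with cotreatment. It holds no value per library, so no spread between the 2 libraries and no depth stands beside any value. A site was called for a factor and treatment when its FDR against NS was at most 0.05, its log2 fold was above 1 and its intensity was at least 4. This rule returned the deposited gained, lost and maintained labels at all 11571 sites. The deposited significance label equalled the call at all sites with cotreatment. It did so at 8613 sites for GR with budesonide and at 9413 for RELA with IL-1β.

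Collagens are trimeric proteins that form the fibrils and sheets of the extracellular matrix, and laminins are heterotrimers of an α, a β and a γ chain that organise basement membranes. Integrins are heterodimers of an α and a β subunit that hold cells to these ligands and pass signals in both directions across the membrane. In airway epithelium, type IV collagen and laminins form the basement membrane beneath the cells, laminin with the α3 and β3 chains (the products of LAMA3 and LAMB3) anchors basal cells to it, and the epithelial integrin αvβ6 releases active TGF-β from its latent complex.

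The DNA under these sites is shown first. Of the 95 sites, 20 contained the form of κB element searched here, a sequence that NF-κB binds, and 1 contained a complete GR element. Over all sites the shares were 11.6% and 11.2%. The GR element (GRE) was searched as the half-site GNACA and its reverse complement TGTNC separated by 3 bases. The κB element was GGG and TTTCC separated by 2 bases, and other forms of κB element were not searched or marked. Both strands of each 400-base site were read. The sequences below are from the GRCh38 reference, written 5′ to 3′ on the strand given, with the element in capitals. They are the 11 sites with either element among those selected for intensity, change or closeness to a start, in order of their highest intensity.
ITGB8, downstream of the gene, chr7:20458724-20458823, plus strand: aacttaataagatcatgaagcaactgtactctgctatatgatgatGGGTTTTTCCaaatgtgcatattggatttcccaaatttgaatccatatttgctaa
ITGB6, GRE, upstream, chr2:160228772-160228874, plus strand: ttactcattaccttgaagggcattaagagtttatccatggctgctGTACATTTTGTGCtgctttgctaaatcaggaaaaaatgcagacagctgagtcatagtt
ITGAM, intron, chr16:31265505-31265604, plus strand: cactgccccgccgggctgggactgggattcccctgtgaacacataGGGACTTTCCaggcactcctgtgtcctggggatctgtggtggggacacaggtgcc
ITGB6, upstream, chr2:160209754-160209853, minus strand: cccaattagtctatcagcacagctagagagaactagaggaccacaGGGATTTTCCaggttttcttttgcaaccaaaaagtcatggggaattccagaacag
COL7A1, promoter, chr3:48595432-48595531, plus strand: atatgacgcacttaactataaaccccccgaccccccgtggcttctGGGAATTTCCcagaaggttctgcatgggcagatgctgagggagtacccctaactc
ITGB8, near the start, chr7:20329624-20329723, minus strand: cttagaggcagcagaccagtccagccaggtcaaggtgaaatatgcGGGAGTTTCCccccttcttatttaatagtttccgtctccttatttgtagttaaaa
ITGB6, farther upstream, chr2:160233236-160233335, plus strand: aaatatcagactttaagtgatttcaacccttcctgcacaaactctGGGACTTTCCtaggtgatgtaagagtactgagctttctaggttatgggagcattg
ITGA2, intron, chr5:53032016-53032115, plus strand: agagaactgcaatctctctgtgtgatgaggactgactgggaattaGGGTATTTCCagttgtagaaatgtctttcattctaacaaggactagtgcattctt
COL4A2, intron, chr13:110372015-110372114, plus strand: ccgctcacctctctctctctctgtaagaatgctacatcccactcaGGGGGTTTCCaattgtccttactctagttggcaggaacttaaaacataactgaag
LAMB3, intron, chr1:209651152-209651251, minus strand: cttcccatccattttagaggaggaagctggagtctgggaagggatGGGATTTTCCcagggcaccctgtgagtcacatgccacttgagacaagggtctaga
ITGB6, close upstream, chr2:160208197-160208296, plus strand: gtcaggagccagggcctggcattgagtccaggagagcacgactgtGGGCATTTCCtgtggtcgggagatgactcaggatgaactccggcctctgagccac

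The inner part of a GRE, ACANNNTGT, was present at 22 of the 95 sites (23.2%, against 30.8% of all sites). A set of 5 such sites, chosen after their values were seen, is shown with that core in capitals. In the first, an intron of COL4A2, the core recurs 8 times in the site at steps that are multiples of 30 bases, and 300 bases around its centre, with 6 of the cores, are printed.
COL4A2, intron repeat, chr13:110481439-110481738, plus strand: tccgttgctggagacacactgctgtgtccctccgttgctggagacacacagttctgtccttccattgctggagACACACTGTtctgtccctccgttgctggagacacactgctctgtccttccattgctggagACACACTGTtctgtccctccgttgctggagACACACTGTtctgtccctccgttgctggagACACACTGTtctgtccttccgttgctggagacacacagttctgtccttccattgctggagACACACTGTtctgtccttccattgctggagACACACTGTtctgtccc
ITGB1, intron, chr10:32953261-32953359, plus strand: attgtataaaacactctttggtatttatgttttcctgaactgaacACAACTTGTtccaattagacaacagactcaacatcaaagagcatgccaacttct
COL4A2, far upstream, chr13:110120587-110120685, plus strand: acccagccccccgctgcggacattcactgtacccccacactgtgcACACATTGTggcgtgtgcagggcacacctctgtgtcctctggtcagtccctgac
ITGA10, exon 30, chr1:145892176-145892274, plus strand: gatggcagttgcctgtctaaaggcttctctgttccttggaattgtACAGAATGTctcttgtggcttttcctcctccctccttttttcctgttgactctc
LAMA3, intron, chr18:23742199-23742297, plus strand: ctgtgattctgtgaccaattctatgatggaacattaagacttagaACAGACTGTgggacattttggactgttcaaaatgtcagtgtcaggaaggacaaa

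With budesonide alone, GR rose at 46 of the 95 sites (48.4%), beside 56.0% of all sites. With IL-1β alone, RELA rose at 49 (51.6%), beside 40.9% of all sites. With IL-1β-plus-budesonide the counts were 60 for GR (63.2%, against 60.5% of all sites) and 47 for RELA (49.5%, against 42.1%). Both comparisons of a factor share the same NS libraries. At the FDR alone, GR was below NS with budesonide at 1 member site, in ITGB2 (0.337% of all sites), and RELA was below NS with IL-1β at 2, in COL4A2 and ITGA11 (1.43% of all sites). The log2 fold exceeded the intensity itself at 20 of the 95 sites for GR with budesonide and at 5 for RELA with IL-1β. Over all 11571 sites these counts were 2751 and 1014. Subtracting such a fold from the intensity gives a value below 0, which is not a measured intensity of NS.

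Counted over all 95 sites, a κB element was present at 20 (21.1%, 95% Wilson interval 14.1 to 30.3) against 11.6% of all 11571 sites. Among the 49 sites called for RELA with IL-1β, 17 held one (34.7%, interval 22.9 to 48.7), against 22.4% of all sites so called. The complete GRE was at 1 of the 46 sites called for GR with budesonide (2.17%, interval 0.385 to 11.3), against 18.2% of all sites so called. With the shorter core the shares were 18 of 46 (39.1%, interval 26.4 to 53.5) and 43.0%. An AP-1 element, TGANTCA, was at 39 of the 95 sites (41.1%, interval 31.7 to 51.1) and at 30.8% of all sites. The intervals cover counting error over sites only, and these shares were not compared by a test. The core search was added after the data were seen, and no match of the core, κB or AP-1 element overlapped a match of another of the 3 at a member site. The median GC content was 44.5% both at these sites and over the table.

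After the single treatments, 36 sites were called for GR only (37.9%, against 45.9% of all sites), 39 for RELA only (41.1%, against 30.9%), 10 for both (10.5%, against 10.1%) and 10 for neither (10.5%, against 13.1%). The 10 shared sites were 21.7% of the GR calls and 20.4% of the RELA calls, and over the whole table these shares were 18.0% and 24.5%. After IL-1β-plus-budesonide, 34 sites were called for GR only (35.8%, against 33.7%), 21 for RELA only (22.1%, against 15.2%), 26 for both (27.4%, against 26.8%) and 14 for neither (14.7%, against 24.2%). The shared sites were then 43.3% of the GR calls and 55.3% of the RELA calls, beside 44.3% and 63.8% over the table. By gene, after the single treatments 12 genes had GR calls only (28.6%, against 34.7% of the 4714 genes of the table), 12 RELA calls only (28.6%, against 25.8%) and 16 calls of both (38.1%, against 31.8%). After cotreatment 13 genes had GR calls only (31.0%, against 27.6%), 6 RELA calls only (14.3%, against 13.6%) and 21 of the 42 calls of both (against 44.3%). At 18 of the 21 both factors were called at the same site, a count without a share over all genes beside it. None of these shares was compared by a test.

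**Figure D1:**
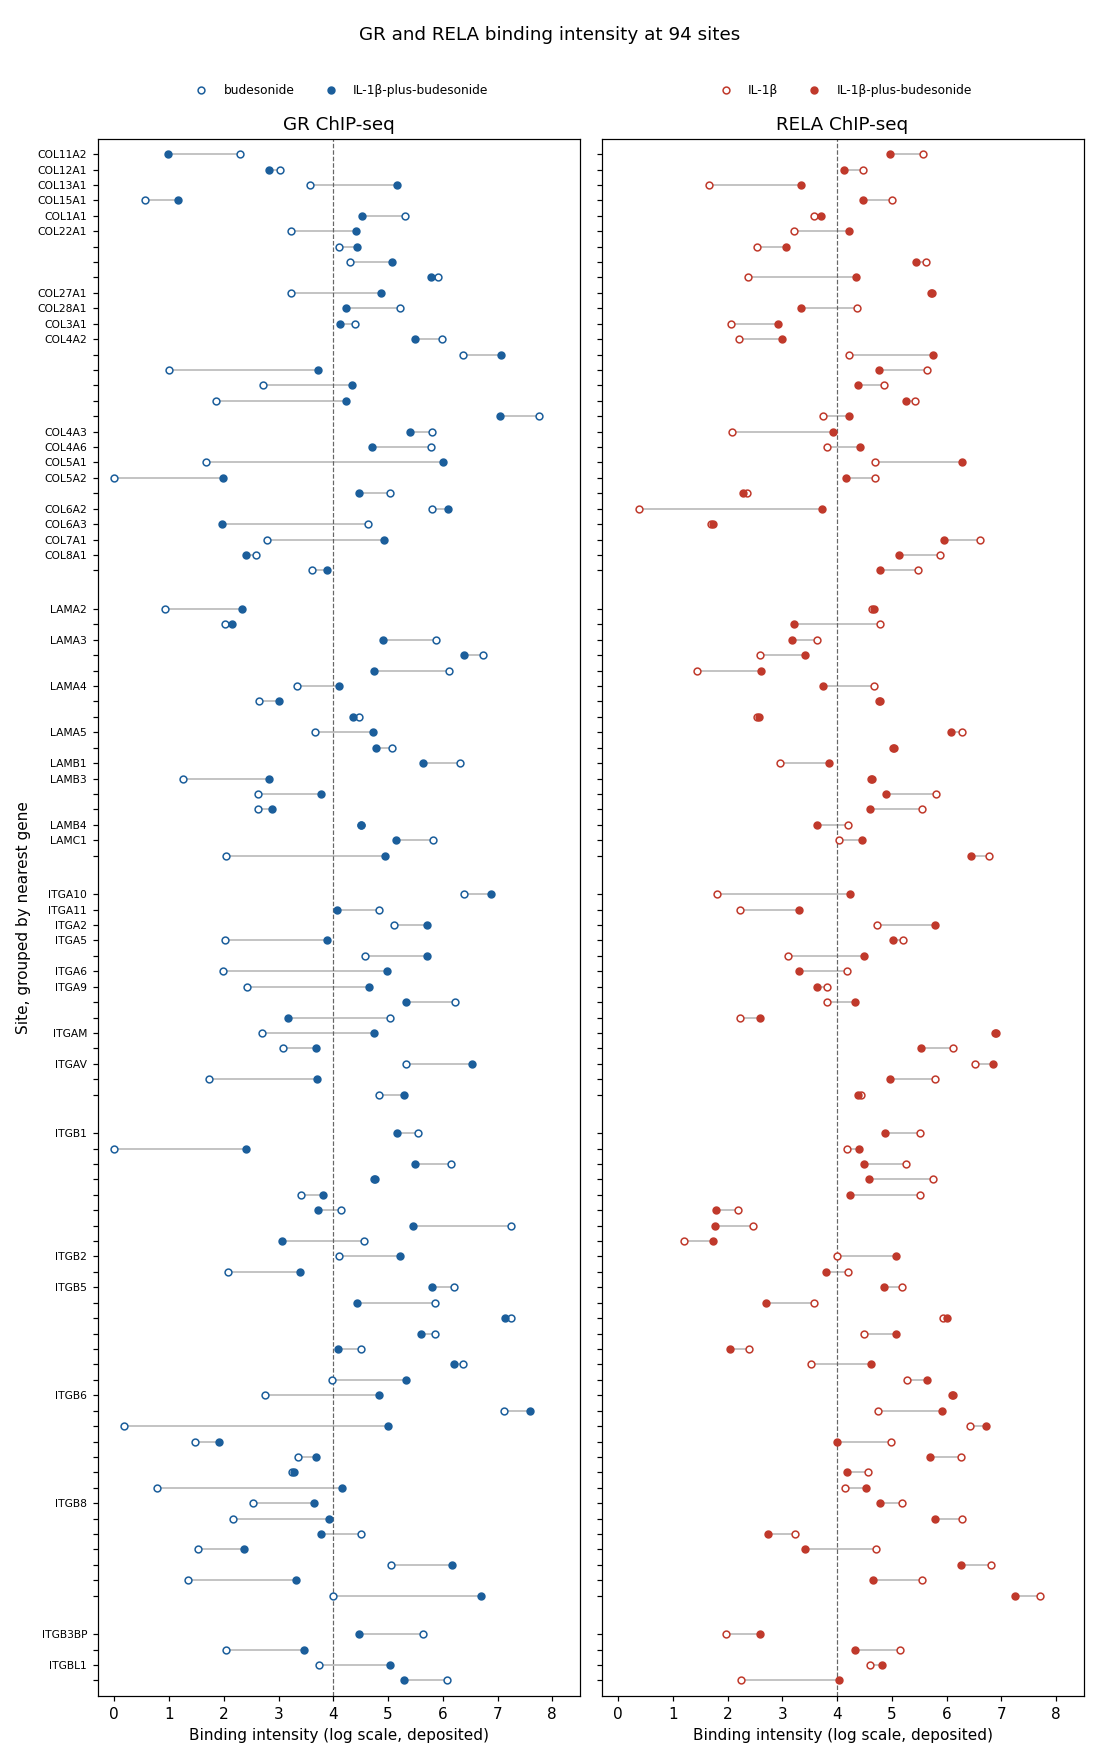
Binding intensity (log scale, deposited) of GR and RELA at 94 of the 95 sites, grouped by nearest gene; open points are the single treatment, filled points IL-1β-plus-budesonide, and the dashed line is the intensity of 4 that a call requires. GR intensities with budesonide run from 0 to 7.75 and RELA intensities with IL-1β from 0.38 to 7.71.

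The difference between the GR log2 folds of cotreatment and budesonide had a median of 0.45 over the 95 sites and 0.14 over all sites. Over the 66 member sites called for GR under at least 1 of the 2 treatments, the median had the other sign, -0.10, as it had over all sites so called. Split by the RELA call with IL-1β alone, the median was 1.26 at the 49 called sites, with GR higher at 41, and -0.36 at the other 46, with GR higher at 16. Over the table the same split gave 1.10 and -0.36, with GR higher at 4001 of 4738 and 2339 of 6833 sites. This split was added after the data were seen. It uses no GR value but overlaps the GR call with budesonide. Of the 49 sites, 39 had no such GR call, and 36 of the 46 had one. The classes that follow are chosen by that GR call itself, the value that is subtracted. This choice by itself favours a higher difference at uncalled and a lower one at called sites, and the split by RELA carries part of it. At the 39 sites called for RELA with IL-1β but not for GR with budesonide, the median was 1.64 and GR was higher with cotreatment at 36. Over the table the median was 1.44, and GR was higher at 3182 of the 3575 such sites. At the 31 sites called for GR with budesonide and never for RELA, the median was -0.71 and GR was lower with cotreatment at 28 (90.3%), beside -0.61 and 81.7% over the table. At the 15 sites called for GR with budesonide and for RELA under either treatment, the median was 0.02, with GR higher at 8 and lower at 7. Over all such sites it was 0.18, with GR higher at 1263 of 1977. At the 10 called for both factors after the single treatments GR was higher at 5, with a median of 0.00. Over the table GR was higher at 819 of the 1163 sites so called, with a median of 0.32. These differences carry no test, because the table compares each treatment with NS only. By calls, GR was gained with cotreatment at 20 sites (21.1%, against 15.1% of all sites), lost at 6 (6.32%, against 10.5%) and maintained at 40 (42.1%, against 45.5%). Of the 20 gained sites, 15 were called for RELA with IL-1β (75.0%, Wilson interval 53.1 to 88.8), and the share over the table was 65.7%. None of the 6 lost sites was called for RELA under either treatment (Wilson interval 0 to 39.0%), and 2.96% of the lost sites of all genes were.

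For RELA, the median difference of the log2 folds, cotreatment minus IL-1β, was -0.07 over the 95 sites and 0.10 over all sites. Over the 56 member sites called for RELA under at least 1 of the 2 treatments it was -0.37, and -0.20 over all sites so called. RELA was gained at 7 sites (7.37%, against 9.9% of all sites), lost at 9 (9.47%, against 8.75%) and maintained at 40 (42.1%, against 32.2%). At the 39 sites called for RELA but not for GR under the single treatments, RELA was lower with cotreatment at 32, with a median difference of -0.42. Over the table the median was also -0.42, and RELA was lower at 2864 of the 3575 such sites. These sites are chosen by the RELA call with IL-1β, the value subtracted here.

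**Figure D2:**
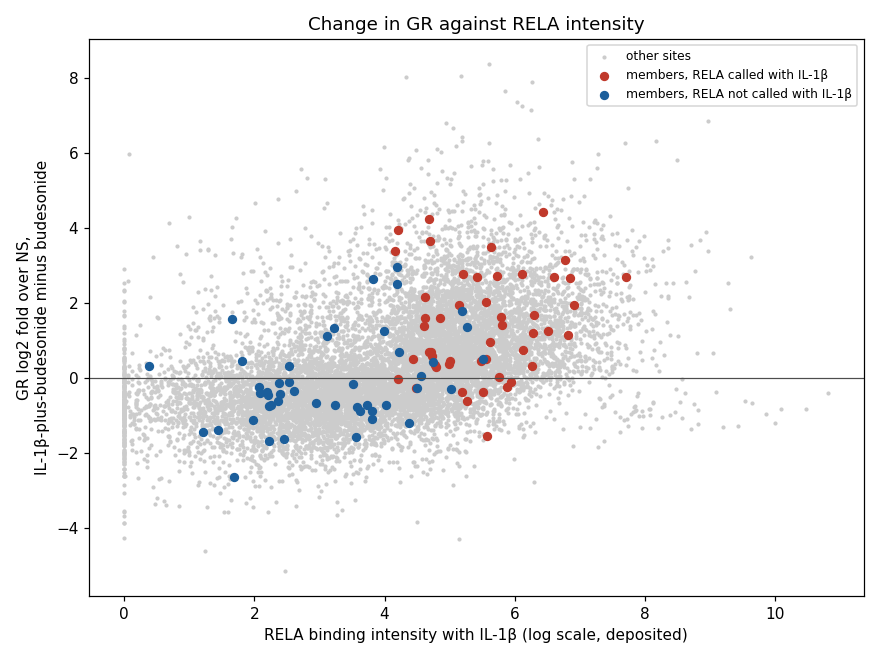
Difference in the GR log2 fold over NS between IL-1β-plus-budesonide and budesonide (vertical axis) against RELA binding intensity with IL-1β (horizontal axis, log scale); red points are member sites called for RELA with IL-1β, blue points the other member sites and grey points all other sites. Most red points lie above 0, with a largest difference of 4.42 at an ITGB6 site.

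Collagens were represented by 18 of 44 protein-coding collagen chain genes, at 28 sites. GR was called at 13 of these with budesonide and 18 with cotreatment (56.0% and 60.5% of all sites). RELA was called at 13 with IL-1β and 14 with cotreatment (40.9% and 42.1% of all sites). After the single treatments no collagen site was called for both factors, and after cotreatment 7 of the 28 were. Over all sites these shares were 10.1% and 26.8%. COL4A2, which encodes the α2 chain of type IV collagen, had 6 sites, the most of the collagens.

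The highest GR intensity among all 95 sites was in intron 31 of COL4A2, at chr13:110481389-110481788, the site of the 30-base repeat. GR had a log2 fold of 5.25 with budesonide (FDR = 1.7e-22, intensity 7.75, percentile 98.2 of all sites) and 4.53 with cotreatment (FDR = 6.5e-17, intensity 7.04). RELA at the same site lay below NS with IL-1β, with a log2 fold of -3.12 (FDR = 0.0049, intensity 3.74), and had -0.86 with cotreatment (FDR = 0.43). Within the site, 93.0% of bases equalled the base 30 positions further on, and 5 sites of the whole table held at least 8 cores. The nearest protein-coding start to this site is that of RAB20. The sources used here do not say how reads fitting several copies of a repeat were placed.

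The other COL4A2 sites divided by position. A pair lay far upstream, beyond the neighbouring COL4A1. The first, at chr13:110094693-110095092, had GR log2 folds of 8.08 with budesonide (FDR = 1.6e-07, intensity 5.99) and 7.64 with cotreatment (FDR = 7.1e-07) and no RELA call. The second, at chr13:110120417-110120816, had GR intensities of 6.36 and 7.07 with GR log2 folds of 5.09 and 5.78 (FDR = 1.8e-06 and 7.1e-08). RELA was called there only with cotreatment, when its log2 fold was 2.80 (FDR = 0.015) after 1.23 with IL-1β (FDR = 0.34). The remaining 3 sites lay in intron 4, downstream of the adjoining starts of COL4A1 and COL4A2, and all had RELA calls under both treatments. Their RELA log2 folds with IL-1β were 3.68, 3.75 and 4.12 (intensities 5.64, 4.86 and 5.43). GR was not called at any of the 3 with budesonide and was called at 2 with cotreatment, with log2 folds of 3.66 (FDR = 0.012) and 3.69 (FDR = 0.00051).

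The other type IV chains had GR alone. COL4A3, whose product belongs to the glomerular and alveolar basement membrane, had a GR log2 fold of 3.82 with budesonide (FDR = 7.9e-05, intensity 5.80) and 3.43 with cotreatment (FDR = 0.00041). At COL4A6 these were 4.72 (FDR = 1.3e-08, intensity 5.79) and 3.63 (FDR = 1.3e-05). RELA passed the call rule at neither gene, with log2 folds of 0.41 and -1.24 with IL-1β.

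COL7A1, which encodes the collagen of the anchoring fibrils beneath epithelia, had the site closest of the 95 to a canonical start. It spanned chr3:48595273-48595672, with its centre 143 bp upstream of that start. RELA had a log2 fold with IL-1β of 2.50 (FDR = 0.00051, intensity 6.61, percentile 94.6) and 1.76 with cotreatment (FDR = 0.017, intensity 5.96). GR had 0.14 with budesonide (FDR = 0.92, intensity 2.79) and 2.83 with cotreatment (FDR = 0.013, intensity 4.93), and so was called with cotreatment only. The κB element printed for COL7A1 lies in this site.

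Fibrillar collagens, which form the cables of connective tissue, had 7 sites at 6 genes. The largest GR difference among collagens was in intron 9 of COL5A1, at chr9:134734116-134734515. GR there had a log2 fold of 1.37 with budesonide (FDR = 0.36, intensity 1.68) and 5.63 with cotreatment (FDR = 1.8e-05, intensity 6.00). RELA had 2.23 with IL-1β (FDR = 0.047, intensity 4.69) and 3.76 with cotreatment (FDR = 0.00051, intensity 6.29), so both factors were higher at this site with the combination. At COL27A1, in intron 41, the RELA log2 fold was 4.70 with IL-1β and 4.68 with cotreatment (FDR = 1.5e-08 and 2.3e-08), while GR had -0.93 with budesonide (FDR = 0.27) and 1.79 with cotreatment (FDR = 0.012). The nearest protein-coding start to that site is ORM1.

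The genes of type I and type III collagen had GR sites without RELA. At COL1A1, in exon 51 near the end of the gene, the GR log2 fold was 3.60 with budesonide (FDR = 0.0024) and 2.83 with cotreatment (FDR = 0.017). The COL3A1 site lay 317.8 kb upstream of the start and had 3.96 (FDR = 0.00062) and 3.72 (FDR = 0.0014). COL5A2 carried 1 site of each kind, in neighbouring introns. In its intron 3 GR had log2 folds of 3.41 and 2.81 (FDR = 3e-07 and 2.9e-05) without a RELA call, and in its intron 2 RELA had 5.66 and 5.30 (FDR = 2.1e-05 and 9.1e-05) without a GR call.

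Among the remaining collagens, GR no longer met the call rule with cotreatment at COL6A3, which encodes a chain of beaded-filament type VI collagen. The site, 18.3 kb upstream, had GR log2 folds of 4.32 with budesonide (FDR = 0.0018, intensity 4.64) and 1.69 with cotreatment (FDR = 0.24, intensity 1.96), the largest GR decrease of the set at -2.63. At COL6A2, the partner chain, GR was called under both treatments at 3.29 and 3.61 (FDR = 1.1e-05 and 1.5e-06). Its RELA log2 fold was 0.01 with IL-1β (FDR = 1) and 3.45 with cotreatment (FDR = 0.0025), at an intensity of 3.72 that lay under the limit of a call. COL22A1, at junctions of muscle and tendon, had 4 sites toward and beyond its 3′ end, all nearer to the start of FAM135B. GR was called at 2 of them with budesonide and 3 with cotreatment, and RELA at 1 under each treatment, at different sites. At the site outside the gene, RELA had a log2 fold with IL-1β of 1.39 (FDR = 0.37) and 3.13 with cotreatment (FDR = 0.021). COL8A1, COL11A2, COL12A1 and COL15A1 had RELA calls alone under both treatments, with IL-1β log2 folds from 2.07 to 4.21. COL13A1 had a GR call with cotreatment only (log2 fold 4.56, FDR = 0.00011) and COL28A1 a GR call with budesonide only (2.47, FDR = 0.0019).

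Laminins were represented by 9 of 12 genes, at 18 sites. GR was called at 8 of these with budesonide and 12 with cotreatment (56.0% and 60.5% of all sites). RELA was called at 11 with IL-1β and 8 with cotreatment (40.9% and 42.1% of all sites). LAMA3 and LAMB3, whose products join in the same trimer, separated by factor. All 3 sites of LAMA3 were called for GR under both treatments and none for RELA, whereas all 3 sites of LAMB3 were called for RELA under both treatments and none for GR.

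At LAMA3, which encodes the α3 chain, the site in intron 2 at chr18:23725813-23726212 had the highest GR intensity of the laminins, with log2 folds of 5.45 with budesonide (FDR = 9.8e-11, intensity 6.73) against 5.11 with cotreatment (FDR = 1.5e-09, intensity 6.38). The site 4.7 kb upstream of the start had GR log2 folds of 8.16 (FDR = 9.3e-09, intensity 5.87) and 7.28 (FDR = 2.9e-07, intensity 4.90). RELA passed the FDR there, with log2 folds of 3.84 with IL-1β (FDR = 0.0057) and 3.50 with cotreatment (FDR = 0.012), but at intensities of 3.63 and 3.18. In the second site of intron 2, the one printed above, GR had 3.94 with budesonide (FDR = 0.0006, intensity 6.11) and 2.56 with cotreatment (FDR = 0.027, intensity 4.74). The GR log2 fold was thus lower with cotreatment at all 3 sites, with differences from -0.34 to -1.38.

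At LAMB3, which encodes the β3 chain, RELA had log2 folds with IL-1β of 4.21 in intron 1 (FDR = 5.7e-08, intensity 5.56), 4.07 at 3.2 kb upstream (FDR = 0.00019, intensity 5.81) and 2.80 at 7.7 kb upstream (FDR = 0.0061, intensity 4.62). With cotreatment these were 3.26, 3.24 and 2.82. GR log2 folds at the 3 sites ran from -0.54 to 0.86 with budesonide and from -0.02 to 2.46 with cotreatment, none of them at an FDR of 0.05.

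**Figure D3:**
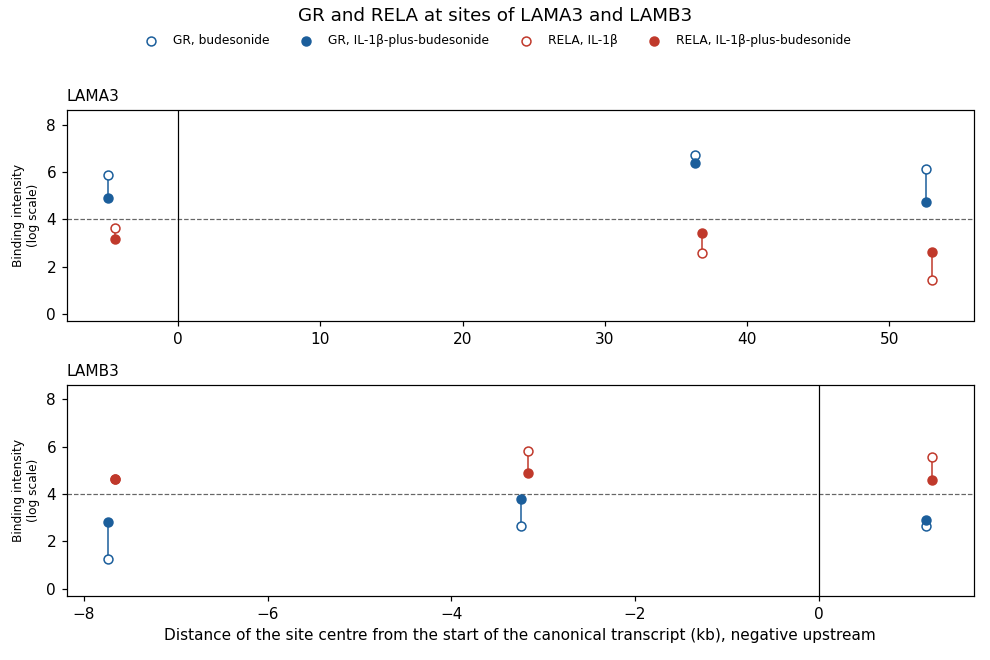
Binding intensity (log scale) of GR (blue) and RELA (red) at the sites of LAMA3 and LAMB3 by distance of the site centre from the start of the canonical transcript in kb; open points are the single treatments, filled points IL-1β-plus-budesonide, and the 2 factors are drawn slightly apart at each site. At LAMA3 the GR points lie at 4.74 to 6.73, above the dashed call limit of 4, and the RELA points below it, and at LAMB3 the reverse holds.

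The γ1 chain gene LAMC1, part of most laminins, had a site of each kind. In intron 1, GR had log2 folds of 3.57 with budesonide (FDR = 1.7e-09, intensity 5.82) and 2.85 with cotreatment (FDR = 1.6e-06) without a RELA call. In intron 26, at chr1:183139580-183139979, RELA had 3.44 with IL-1β (FDR = 0.0016, intensity 6.78) and 3.12 with cotreatment (FDR = 0.0045, intensity 6.44). GR at this second site had 0.78 with budesonide (FDR = 0.61) and 3.93 with cotreatment (FDR = 0.0015).

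LAMA5, which encodes the α5 chain of adult epithelial basement membranes, had a pair of sites in intron 2. The one nearer the start had RELA log2 folds of 4.65 and 4.47 (FDR = 5.7e-06 and 1.6e-05) and GR of 1.49 with budesonide (FDR = 0.15) and 2.71 with cotreatment (FDR = 0.005). The other had GR of 3.72 and 3.44 (FDR = 0.00017 and 0.00054) and no RELA call. LAMB1 had GR alone, at 4.57 and 3.91 (FDR = 3.6e-08 and 2.5e-06, intensities 6.31 and 5.64). LAMB4, whose site is nearer to the start of LAMB1, had GR at 6.94 and 6.92 (FDR = 8e-07 and 9.1e-07) and RELA at 2.92 with IL-1β (FDR = 0.0059). At LAMA4, GR was called at 1 of 3 sites with budesonide and 2 with cotreatment, and RELA at 2 with IL-1β and 1 with cotreatment. LAMA2, the chain of muscle laminin, had RELA calls only. Its site in intron 56 had the largest RELA decrease among sites with a call, from a log2 fold with IL-1β of 2.16 (FDR = 0.024) to 0.13 with cotreatment (FDR = 0.91). The nearest protein-coding start to that site is that of ARHGAP18.

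Integrin α subunits were represented by 8 of 18 genes, at 14 sites. GR was called at 8 sites with budesonide and 10 with cotreatment (56.0% and 60.5% of all sites). RELA was called at 7 under each treatment (40.9% of all sites with IL-1β and 42.1% with cotreatment). The median GR difference between cotreatment and budesonide was 0.94, beside 0.14 over all sites. GR was higher by more than 0.5 at 10 of the 14, and at 4626 of the 11571 sites of the table. ITGA2, ITGA10 and ITGA11 encode subunits that bind collagen in pair with β1. Each of the 3 genes had 1 site, which was called for GR under both treatments.

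In exon 30 of ITGA10, at chr1:145892035-145892434, GR had log2 folds of 8.70 with budesonide (FDR = 2.3e-10, intensity 6.38) and 9.15 with cotreatment (FDR = 2.9e-11, intensity 6.88), without a RELA call. The nearest protein-coding start is that of ANKRD35. At ITGA2, whose α2 subunit is the epithelial collagen receptor, both factors were called in intron 2 under every treatment. GR had 5.05 and 5.65 (FDR = 1.8e-05 and 1.9e-06), and RELA 1.99 with IL-1β (FDR = 0.023) and 3.11 with cotreatment (FDR = 0.00026). ITGA11 had GR at 4.57 and 3.84 (FDR = 0.00014 and 0.0014), and RELA below NS with IL-1β at -3.40 (FDR = 0.037, intensity 2.22) and at 0.11 with cotreatment.

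ITGA5, which encodes the fibronectin receptor subunit α5, had a pair of sites upstream of its start. At 2.0 kb, GR had log2 folds of 3.85 and 4.98 (FDR = 3.1e-05 and 8.7e-08), and RELA was called with cotreatment only, at 2.24 (FDR = 0.035) after 0.65 with IL-1β (FDR = 0.62). At 4.0 kb, RELA had 2.59 with IL-1β (FDR = 0.0084) and was called with cotreatment too (FDR = 0.015), with GR at -1.12 and 1.66 and no call. ITGA6, whose α6 subunit is a laminin receptor, had a site in intron 1 with GR called with cotreatment alone, at 4.65 (FDR = 0.00069) after 1.69 (FDR = 0.27). It was 1 of the gained GR sites without a RELA call, and RELA there had 0.55 with IL-1β and -1.16 with cotreatment. In intron 18 of ITGA9, GR had 6.55 with budesonide (FDR = 2.7e-06, intensity 5.03) and 4.86 with cotreatment (FDR = 0.00052, intensity 3.17), and the call was lost on its intensity although the FDR passed.

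ITGAM, which encodes the αM subunit of a leukocyte integrin, had RELA calls in introns 3 and 5, each beside the same κB sequence, GGGACTTTCC. In intron 3, at chr16:31265353-31265752, RELA had log2 folds of 3.69 with IL-1β (FDR = 3e-05, intensity 6.91, percentile 96.5) and 3.65 with cotreatment (FDR = 4e-05, intensity 6.88). GR at this site had 3.34 with budesonide (FDR = 0.0099, intensity 2.69) and 5.29 with cotreatment (FDR = 3.4e-05, intensity 4.74). In intron 5, RELA had 3.96 and 3.41 (FDR = 9.6e-05 and 0.0009), and GR was called under neither treatment.

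Of the integrin β subunits, 5 of 8 genes were represented, at 31 sites, and ITGB1, ITGB5, ITGB6 and ITGB8 held 29 of them. Each of these 4 products pairs with αv, and with the 3 sites of ITGAV they made up 32 of the 95 sites. ITGAV itself had RELA calls at all 3 sites with IL-1β and at 2 with cotreatment (40.9% and 42.1% of all sites). The strongest lay 45.6 kb upstream at chr2:186544275-186544674, with RELA log2 folds of 2.11 and 2.46 (FDR = 0.014 and 0.0036, intensities 6.52 and 6.84). GR was called there under both treatments, at 2.72 with budesonide (FDR = 0.0058, intensity 5.33) and 3.98 with cotreatment (FDR = 4.8e-05, intensity 6.53).

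The deposited distances of several β subunit sites were counted from a start other than that of the canonical transcript in GENCODE 44. The difference was above 1 kb at all 8 sites of ITGB1, all 7 of ITGB5 and of ITGB6, and both of ITGB2. Distances given here are from the canonical start. The site that the table places at the start of ITGB1 thus lies 47.6 kb upstream of the canonical one.

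ITGB1 encodes the β1 subunit, the partner of the largest number of α subunits. In its intron 1, at chr10:32953193-32953592, GR had a log2 fold of 9.36 with budesonide (FDR = 1.3e-10, intensity 7.25, percentile 96.4) and 7.74 with cotreatment (FDR = 9.5e-08, intensity 5.46), without a RELA call. In intron 2, GR had 4.50 with budesonide (FDR = 0.00048) and 3.07 with cotreatment (FDR = 0.019, intensity 3.06), where it was no longer called. The GR log2 fold was thus lower with cotreatment at both sites inside the canonical transcript, with differences of -1.62 and -1.43. Of the 6 sites upstream, 4 had a RELA call under at least 1 treatment, as had 5883 of the 11571 sites of the table. At chr10:33005609-33006008, RELA had the highest log2 fold of the whole set, 6.80 with IL-1β (FDR = 1.7e-06, intensity 5.76) and 6.05 with cotreatment (FDR = 3.3e-05, intensity 4.58), and GR had 4.42 and 4.44 (FDR = 0.0012 and 0.0012). The sites 52.1 and 198.0 kb upstream were called for both factors after the single treatments, with GR log2 folds of 6.67 and 5.47 and RELA log2 folds of 2.69 and 3.16. In all, 3 of the 8 ITGB1 sites were called for both factors after the single treatments, beside 10.1% of all sites.

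ITGB5, whose product αvβ5 binds vitronectin, had mostly GR calls. Its 7 sites all lay in introns, GR was called at 6 with budesonide and all 7 with cotreatment, and RELA at the same 2 under both treatments. The shares over all sites were 56.0% and 60.5% for GR and 40.9% and 42.1% for RELA. In intron 5, at chr3:124837718-124838117, GR had log2 folds of 8.53 and 8.43 (FDR = 2.6e-09 and 4.2e-09, intensities 7.24 and 7.14), and RELA 4.47 and 4.53 (FDR = 2.7e-05 and 2.5e-05, intensities 5.94 and 6.00). Neither factor differed between treatments by more than 0.10 on the log2 scale at this site. It held no match to the GRE, GRE core, κB or AP-1 pattern searched. In intron 1, GR had 6.10 and 5.73 and RELA 2.61 and 2.27. In intron 2, GR had 3.43 with budesonide (FDR = 2.2e-07, intensity 5.85) and 1.85 with cotreatment (FDR = 0.006, intensity 4.44), the largest decrease of this gene.

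ITGB6 and ITGB8 had mostly RELA calls. Over their 14 sites RELA was called at 10 with IL-1β and 9 with cotreatment, and GR at 3 with budesonide and 5 with cotreatment. Over all sites these shares were 40.9% and 42.1% for RELA and 56.0% and 60.5% for GR. The median GR difference between cotreatment and budesonide was 1.42 at these 14 sites. It was 0.14 over all sites and 1.10 over all sites called for RELA with IL-1β.

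At ITGB6, which encodes the epithelial β6 subunit, 6 of the 7 sites lay upstream of the canonical start. The site 28.5 kb upstream, at chr2:160228617-160229016, held the only complete GRE of the set. GR had log2 folds of 8.64 with budesonide (FDR = 8.6e-12, intensity 7.12) and 9.08 with cotreatment (FDR = 7.8e-13, intensity 7.60, percentile 97.8). RELA was called there with cotreatment only, at 2.82 (FDR = 0.032) after 1.75 with IL-1β (FDR = 0.22). At the site 33.0 kb upstream, at chr2:160233075-160233474, the pattern was the reverse. RELA had 3.13 with IL-1β and 3.13 with cotreatment (FDR = 3e-05 and 3.6e-05, intensities 6.11 and 6.10), and GR had -0.06 with budesonide (FDR = 0.96) and 2.73 with cotreatment (FDR = 0.0022, intensity 4.83).

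Of the 4 sites nearest upstream of the ITGB6 start, 3 were called for RELA, and the nearest, at 5.5 kb, had no call of either factor. At 9.5 kb upstream, RELA had log2 folds of 5.94 and 6.26 (FDR = 7.9e-07 and 3.9e-07, intensities 6.43 and 6.72). GR at this site had the largest difference of the set, from -1.88 with budesonide (intensity 0.17) to 2.54 with cotreatment (intensity 5.00), but its FDR against NS was 0.48 and 0.29, and it was called under neither. RELA at the sites 7.2 and 8.0 kb upstream, whose starts are 879 bases apart, had 3.19 and 2.28 with IL-1β and 2.61 and 1.21 with cotreatment, the last without a call (FDR = 0.29). In exon 7, RELA had 3.31 and 3.64 (FDR = 0.0092 and 0.004), and GR 0.64 with budesonide (FDR = 0.74) and 4.03 with cotreatment (FDR = 0.0082).

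ITGB8 encodes the β8 subunit of αvβ8, which also activates TGF-β. The highest RELA intensity of the set lay 127.8 kb downstream of its start and 42.8 kb beyond the end of the gene, at chr7:20458536-20458935. RELA had log2 folds of 4.53 with IL-1β (FDR = 0.00023, intensity 7.71, percentile 99.0) and 4.14 with cotreatment (FDR = 0.00082, intensity 7.25). GR had 2.27 with budesonide (FDR = 0.06, intensity 4.00) and 4.99 with cotreatment (FDR = 1.9e-05, intensity 6.70). In intron 1, at chr7:20352949-20353348, both factors were called under every treatment, RELA at 4.44 and 3.94 (FDR = 1.8e-05 and 0.00016) and GR at 3.00 and 4.15 (FDR = 0.0014 and 9.4e-06).

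The ITGB8 site closest to the canonical start, 1.3 kb upstream of it, had RELA log2 folds of 4.32 and 3.82 (FDR = 2.8e-08 and 9.6e-07). GR there had 2.43 with budesonide (FDR = 0.11) and 4.11 with cotreatment (FDR = 0.0041), at an intensity of 3.92 just under the limit of a call. The only ITGB8 site with GR alone lay in intron 1, 10.2 kb from the start, with GR at 4.27 with budesonide (FDR = 0.00029) and at 3.55 with cotreatment (FDR = 0.0027), where an intensity of 3.77 ended the call.

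**Figure D4:**
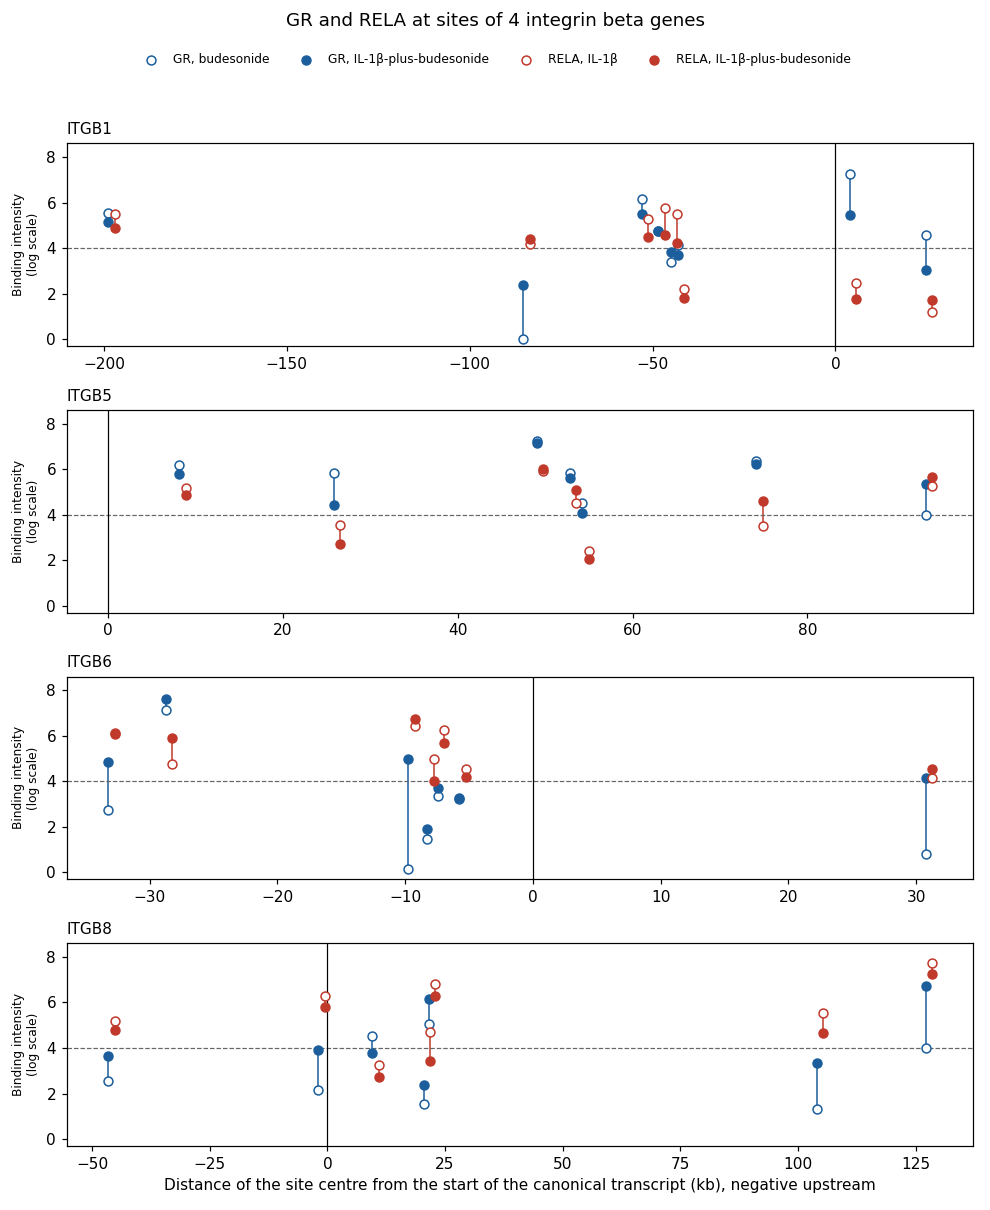
Binding intensity (log scale) of GR (blue) and RELA (red) at the sites of ITGB1, ITGB5, ITGB6 and ITGB8 by distance of the site centre from the start of the canonical transcript in kb; open points are the single treatments, filled points IL-1β-plus-budesonide, the dashed line is the call limit of 4, and the 2 factors are drawn slightly apart. GR lies above RELA at all sites of ITGB5 except the one 93.9 kb from the start, and RELA lies above GR at most sites of ITGB6 and ITGB8.

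ITGB2, which encodes the β2 subunit of leukocyte integrins, had a pair of sites upstream of the canonical start. At the nearer, 4.3 kb upstream, GR was below NS with budesonide, with a log2 fold of -3.27 (FDR = 0.039, intensity 2.07), and at 0.68 with cotreatment (FDR = 0.62). RELA had 3.40 with IL-1β (FDR = 0.0024). The other site, 7.1 kb upstream, was called for both factors with cotreatment only, GR at 2.96 (FDR = 0.0036) and RELA at 3.89 (FDR = 8.8e-05), and the RELA intensity with IL-1β was 3.99. ITGB3BP and ITGBL1, the genes without a subunit product, had 4 sites, with GR called at 2 with budesonide and 3 with cotreatment (56.0% and 60.5% of all sites). At ITGBL1, in intron 6, GR had 8.23 and 7.52 (FDR = 4.4e-08 and 5.3e-07), and RELA was called with cotreatment only, at 3.13 (FDR = 0.0074).

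**Figure D5:**
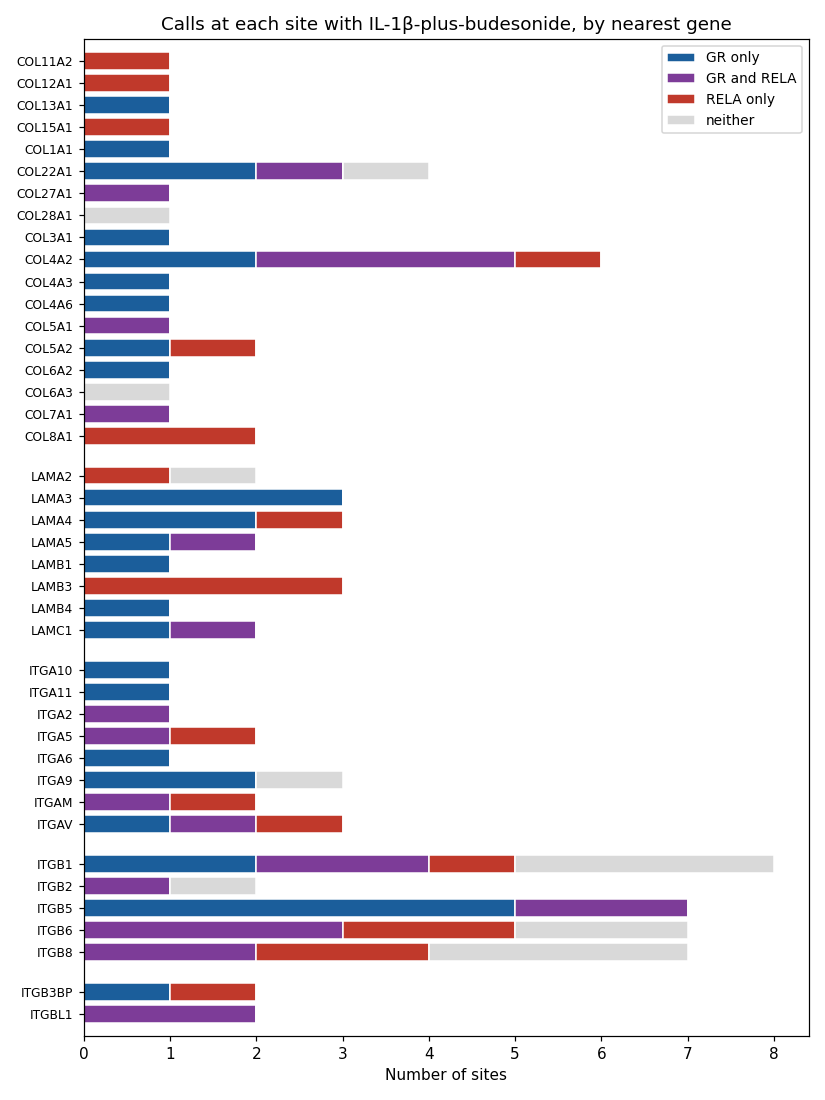
Number of sites called with IL-1β-plus-budesonide for GR only (blue), for both factors (purple), for RELA only (red) or for neither (grey), by nearest gene, in the order collagens, laminins, integrin α, integrin β and the 2 genes without a subunit product. Over the 41 genes shown the bars add up to 34, 25, 21 and 14 sites.

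Most sites lay away from gene starts. Within 1 kb of the deposited start there were 3 of the 95 (3.16%, against 3.45% of all sites), and 27 lay over 100 kb away (28.4%, against 37.2%). By the canonical transcript, 48 sites fell in introns, 3 in exons, 38 outside the named gene and 6 inside the gene but outside that transcript. At 20 of the 95 sites, the nearest protein-coding start in GENCODE 44 was that of another gene, and 9 sites lay over 50 kb outside the gene they were named for. Whether a site acts on the gene named at it was not tested.

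Other genes of cell adhesion to matrix were taken from 4 lists that hold 73 genes, of which 42 were named at 143 sites. GR was called at 70 with budesonide (49.0%, against 56.0% of all sites) and 89 with cotreatment (62.2%, against 60.5%). RELA was called at 67 with IL-1β (46.9%, against 40.9%) and 72 with cotreatment (50.3%, against 42.1%). The cytoplasmic partners of integrins had the most, with 81 sites at 18 of 25 genes, 46 of them called for GR with budesonide (56.8%) and 32 for RELA with IL-1β (39.5%). Matrix ligands and matricellular proteins had 28 sites at 10 of 20 genes (GR 12, or 42.9%, and RELA 15, or 53.6%), other matrix receptors 23 sites at 8 of 13 (GR 7, or 30.4%, and RELA 14, or 60.9%), and genes of collagen processing 11 sites at 6 of 15 (GR 5, or 45.5%, and RELA 6, or 54.5%).

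A few of these sites exceeded every collagen, laminin or integrin site in intensity. VCL, which encodes vinculin of focal adhesions, had a GR intensity of 8.97 with budesonide (log2 fold 6.10, FDR = 7.4e-12) and 7.98 with cotreatment. PTK2, focal adhesion kinase, had 8.20 (log2 fold 7.51, FDR = 6.5e-13) and 7.71. TNS4, a tensin that binds β integrin tails, had 7.68 with cotreatment, and SDC4, the co-receptor syndecan-4, had a RELA intensity of 7.28 with cotreatment at its start (log2 fold 3.06, FDR = 0.0021).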

How the data were processed

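ChIP-seq values for GR and RELA were read from the deposited table of 11571 sites of 400 bp, with 4 lines a site. Per the submitters' processing notes, bcl2fastq, FastQC 0.10.1, Bowtie2 2.4.4 with GRCh38, SAMtools, MACS2 2.2.7.1 and DiffBind 3.2 were used. The deposited fold over NS is the authors' value and was taken as log2, since no source states its base. The deposited binding intensity is a score on a logarithmic scale, and the deposited FDR is the authors' q-value against NS, with its adjustment method not stated. These fold and FDR columns are the authors' comparisons and the table's only measurements, so they were used as the values of each site. The table pools the 2 libraries of a group, which came from separate experiments, so depth and error are unknown, and no test was run. GR with IL-1β, RELA with budesonide and the inputs were not analysed here. Differences between cotreatment and a single treatment subtract 2 folds that share NS.

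Sites were assigned to genes by the table's nearest gene and placed on GENCODE 44. Elements were searched in the GRCh38 reference on both strands, the search was tested on simulated data, and shares have 95% Wilson intervals. Adhesion gene lists and groups of chains follow textbook function. A single member gene enters the counts and is not reported here by name. The members, lists and groups were chosen with earlier results of these data known. Sites named were, per factor, the 8 of highest intensity among those called with the single treatment, the 6 largest rises and falls among called sites, and sites within 1 kb of a start. All genes enter the counts, and other sites are named to complete their gene. Sequence was read with pysam 0.24.0, values were handled with pandas 2.3.3 and NumPy 2.4.6 in Python 3.11.15, intervals came from SciPy 1.17.1, and plots were drawn with Matplotlib 3.10.9.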

Additional observations from a re-analysis of the deposited data

How the results depend on the processing

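Of 33 alternative values, 27 kept their direction and stayed within the limits set for a change. An intensity limit of 5 in place of 4 lowered the GR calls with cotreatment from 60 to 32, the RELA calls with IL-1β from 49 to 32 and those with cotreatment from 47 to 23. At that limit the member share was 33.7% against 35.6% of all sites for GR with cotreatment and 24.2% against 25.1% for RELA with cotreatment, so both lay below the table instead of above it. For RELA with IL-1β it was 33.7% against 27.2%. Restricted to sites called under at least 1 of the 2 treatments, the median GR difference was -0.10 in place of 0.45. As a median over genes, the RELA difference was 0.05 in place of -0.07. Within the central 200 bp, AP-1 elements were at 30.5% of member sites in place of 41.1%. Over all sites the share was 21.0% in place of 30.8%. Calls with an FDR limit of 0.01, a log2 fold limit of 2, no intensity limit, or only the 86 sites within 50 kb of their gene stayed within 1.5 times the counts given. No paired analysis was possible because the deposited table holds no values per library, and leaving out a library could not be run for the same reason.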
